A study of Mus musculus with 4 samples.

Results

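Trh, Prlr, Enpp2, Kctd12b, Pmel, Neb and Pla2g4a are 7 genes, of 55401 in the deposited tables, that stood among the most strongly lowered in mouse embryonic stem cells expressing the leukaemia fusion NUP98-HOXA9. They were picked by their fold change between fusion and wild-type cells from the low end of the ranking, for functions in hormone signalling, lipid metabolism, the melanosome, muscle and, for Kctd12b, none of these. Their lower level in that contrast is therefore a description and is given without a test. RNA was measured in 4 libraries: the parental EB3 line, EB3-derived cells with an empty vector, and EB3-derived cells with the fusion (replicates 1 and 2). Parental and empty-vector cells, labelled wild type, were set together against the fusion cells. Every library came from cells kept on gelatin in serum medium with LIF, the cytokine that holds these cells undifferentiated. No source used here says if the fusion replicates came from different clones or cultures, or which promoter drives the fusion, so the p-values reflect the spread of these 4 samples alone, which may be technical. The 2 wild-type libraries are also different kinds of control.

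Libraries held 19021386 to 21151729 expected counts, and mitochondrial genes took 2.03% to 2.5% of them. Hoxa9 was at 0 counts in parental and in empty-vector cells and reached 190 and 127 CPM (counts scaled to library size, here by the TMM method) in fusion replicates 1 and 2. Nup98 had 216 and 218 CPM against 310 and 296 CPM (adjusted p = 0.161, edgeR). Of 10 embryonic stem cell markers, all were tested and 0 passed an adjusted p of 0.05 in edgeR's quasi-likelihood test. Of the 10, 2 had both fusion libraries above both wild-type libraries and 4 had them below, against 4468 and 4002 of 16511 genes tested. The 2 were Nanog (314 and 489 against 1040 and 690 CPM) and Klf4 (62.5 and 125 against 268 and 228 CPM). The TPM of the 10 markers, a level scaled by transcript length, summed to 6170 and 7210 in wild-type and to 7190 and 8420 in fusion libraries. Dppa5a alone made up 3153 and 3392 TPM of the wild-type and 3286 and 4738 TPM of the fusion sums. Among markers of the anterior pituitary, melanocytes and muscle, Prl and Tshb of the pituitary and Tyr of melanocytes had 0 counts in every library. Myod1 and Myog of muscle had too few counts to be tested. Other markers were present: 4 of 7 for melanocytes and 4 of 6 for muscle could be tested, and 0 of 5 for the pituitary. In the parental library Kit and Mitf stood at 45.9 and 6.3 CPM, and Ttn and Des of muscle at 19.7 and 9.22 CPM.

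The 7 genes serve different systems. TRH is a hypothalamic peptide, cut from a longer prohormone, that releases thyrotropin and prolactin from the pituitary. PRLR is the prolactin receptor, a cytokine receptor that signals through JAK2 and STAT5. ENPP2, or autotaxin, is a secreted enzyme that makes the signalling lipid lysophosphatidic acid, and PLA2G4A, the cytosolic phospholipase A2, frees arachidonic acid for prostaglandin and leukotriene synthesis. PMEL forms the fibrils on which pigment is laid down in melanosomes, NEB is the giant protein along the thin filaments of muscle, and KCTD12B is a relative of KCTD12, an auxiliary subunit of GABA-B receptors.

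Trh (chromosome 6, 92242061 to 92244650, minus strand, GRCm38) was the hormone gene of the set and its most abundant transcript. It stood at 953 CPM in the parental library, 476 CPM in the empty-vector library, and 20.9 and 56 CPM in fusion replicates 1 and 2. Both wild-type libraries lay above both fusion libraries, and even the closest pair, empty vector and fusion replicate 2, differed 8.49-fold. The fitted log2 fold change was -4.21, or 18.6-fold lower. Trh was 12.8-fold lower without fusion replicate 1 and 34.2-fold lower without replicate 2. Without the parental library it was 12.5-fold lower, and without the empty-vector library 25.3-fold. In bulk RNA, fewer cells that express a gene and less RNA in each cell cannot be told apart.

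Prlr (chromosome 15, 10177238 to 10349180, plus strand), the receptor, had the lowest log2 fold change of the 7, at -4.78 (27.5-fold lower). Its level was 8.96 CPM in the parental library, 1.8 CPM with the empty vector, and 0.1 and 0.274 CPM in the fusion replicates. The fusion values rest on 2 and 6 expected counts, against 172 and 34 in the wild-type libraries. The groups did not overlap, but the control with the vector was much nearer to the fusion cells than the parental line was. The fold depended on that choice: it was 9.37-fold lower without the parental library, 46.7-fold without the empty-vector library and 50.5-fold without fusion replicate 2.

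Enpp2 (chromosome 15, 54838901 to 54952892, minus strand), the lysophosphatidic acid enzyme, stood at 5.16 CPM in parental and 15.2 CPM in empty-vector cells, and at 0.251 and 0.821 CPM in the fusion replicates. Here the empty-vector library was the highest of the 4, the opposite order to Prlr and Trh. The log2 fold change was -4.21 (18.6-fold lower), 9.63-fold lower without the empty-vector library, 28.1-fold without the parental library and 39.5-fold without fusion replicate 2. The fusion values of Enpp2 rest on 5 and 18 expected counts. Pla2g4a (chromosome 1, 149829618 to 149961290, minus strand), the other lipid enzyme, had 4.9 CPM in parental cells, 7.37 CPM with the empty vector, and 0.501 and 0.958 CPM in the fusion replicates. The groups did not overlap, and the log2 fold change was -3.05 (8.31-fold lower).

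Pmel (chromosome 10, 128704195 to 128720238, plus strand), the melanosome fibril gene, stood at 68.7 CPM in the parental and 32.1 CPM in the empty-vector library, against 2.91 and 5.75 CPM in the fusion replicates. The groups were at least 5.59-fold apart in every pair, with a log2 fold change of -3.54 (11.6-fold lower, and 7.5-fold without the parental library). The annotated span of Pmel overlaps the ends of Cdk2 and Dgka, which stood at 102 and 57.3 CPM in the parental library, and how strand was treated in counting was not stated. Reads in those overlaps cannot be assigned with certainty.

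Neb (chromosome 2, 52136647 to 52378474, minus strand), the thin-filament gene, had 7.03 CPM in parental cells, 11.7 CPM with the empty vector, and 0.501 and 1.69 CPM in the fusion replicates. Its groups were the closest of the 7, with 4.17-fold between the parental library and fusion replicate 2. The log2 fold change was -3.08 (8.44-fold lower), 18.4-fold lower without fusion replicate 2 and 5.55-fold without replicate 1. Kctd12b (chromosome X, 153685154 to 153696391, minus strand) had 11.1 CPM in parental cells, 6.26 CPM with the empty vector, and 0.251 and 1 CPM in the fusion replicates, again with no overlap. Its log2 fold change was -3.76 (13.6-fold lower), 33.8-fold lower without fusion replicate 2 and 8.64-fold without replicate 1. The fusion values of Kctd12b rest on 5 and 22 expected counts.

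**Figure D1:**
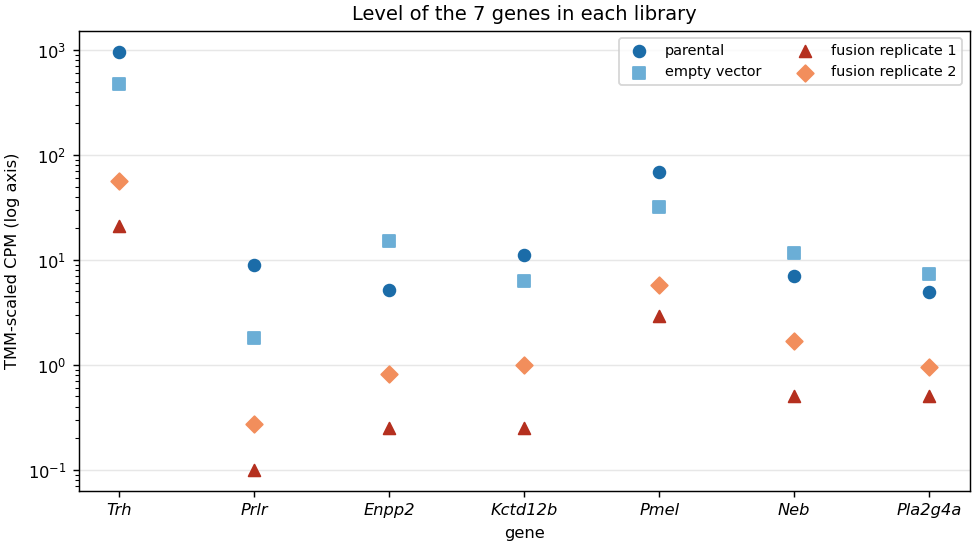
TMM-scaled CPM of each gene (log axis) in the parental, empty-vector and fusion libraries, 1 point per library. For all 7 genes both fusion points lie under both wild-type points, and fusion replicate 2 lies above replicate 1; the parental point is the highest for Trh, Prlr, Kctd12b and Pmel.

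All 7 genes passed the filter on low counts, which their wild-type libraries alone could meet, so the filter favours a lower value in the fusion cells. Of 16511 genes tested, 96 (0.581%) were called lower and 468 (2.83%) higher, and 4002 (24.2%) had both fusion libraries under both wild-type libraries. All 7 genes were called lower and had groups that do not overlap, but they were chosen from this contrast, so nothing is read from it. Among genes with an official symbol, a mean of at least 2 CPM, a call and groups that do not overlap, the members lie within the 10 lowest log2 fold changes. Pla2g4a, the last inside, had -3.05, and Aim2 and Prdm1, just outside, had -3.04 and -2.95. Otx2 (-3.2) and Myb (-3.13) also lie within that range and are not members. Among all 16511 genes tested, without these limits, the members ranked lower down. They ran from rank 7 for Prlr to 37 for Neb and 39 for Pla2g4a.

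Scaled by length, the wild-type levels ran from a mean of 749 TPM for Trh through 34.3 for Pmel, 6.09 for Enpp2, 3.91 for Pla2g4a, 2.74 for Neb and 2.52 for Kctd12b to 1.27 for Prlr. Trh and Pmel stood apart from each other and from the rest in both wild-type libraries. The other 5 do not form a firm order: Enpp2 alone ranged from 2.72 to 9.46 TPM between the wild-type libraries, a range that takes in Pla2g4a, the higher value of Neb and that of Kctd12b. In the fusion libraries Trh (44.3 TPM) and Pmel (3.71 TPM) were still the most abundant, and the other 5 had means from 0.035 TPM (Prlr) to 0.475 TPM (Neb). The mean of Trh in fusion cells was above the wild-type mean of Pmel, although its value in fusion replicate 1, 23.49 TPM, was below the 45.25 TPM of Pmel in the parental library.

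The controls differed from each other for these genes. Members were ranked against both controls together, so a high value in either control could help a gene be chosen. The counts set beside those of all genes are therefore a description. With the empty vector, 3 of the 7 were at least 2-fold lower than in the parental line (Prlr, Pmel and Trh) and Enpp2 was at least 2-fold higher. Across all 14675 genes at 1 CPM or more in either library, 3.75% were at least that much lower and 4.73% at least that much higher (8.48% either way). Prlr was 4.97-fold lower with the empty vector (95% exact binomial interval 3.42 to 7.4), and 0.729% of genes lay at least as far apart. Pmel was 2.14-fold lower (interval 1.94 to 2.36). Trh lay right at the limit, 2-fold lower (1.95 to 2.05), and Enpp2 was 2.94-fold higher (2.33 to 3.74). The intervals of Kctd12b (1.77-fold lower), Neb (1.66-fold higher) and Pla2g4a (1.51-fold higher) also excluded 1. All intervals here cover counting error only, and with 1 library of each kind there is no test of vector against parental cells. On the deposited TPM, 1 gene, Prlr, was at least 2-fold lower, since Trh and Pmel then differed by less. Pla2g4a was not higher with the empty vector on that measure (3.86 TPM, against 3.95 TPM in parental cells).

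The measured level of all 7 genes was higher in fusion replicate 2 than in replicate 1. Over all 15264 genes at 1 CPM or more in either fusion library, 50.9% were higher in replicate 2, and over the 96 genes called lower it was 73 (76%). Of the 4 members at 1 CPM or more, Trh (2.69-fold), Kctd12b (4-fold) and Neb (3.37-fold) were at least 2-fold higher in replicate 2, as were 6.85% of all genes compared. Of the 4, 0 were at least 2-fold lower, against 2.73% of all genes (9.58% differed that much either way). Pmel was 1.98-fold higher. The counting interval lay above 1 for 5 genes: Trh (2.4 to 3.01), Pmel (1.44 to 2.75), Neb (1.64 to 7.59), Kctd12b (1.48 to 13.5) and Enpp2 (1.17 to 11.3). For Prlr (0.488 to 27.6) and Pla2g4a (0.861 to 4.54) it included 1, so at this depth a difference was not detectable. Hoxa9 moved the other way, from 190 CPM in replicate 1 to 127 CPM in replicate 2, and whether the 2 are linked was not tested.

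**Figure D2:**
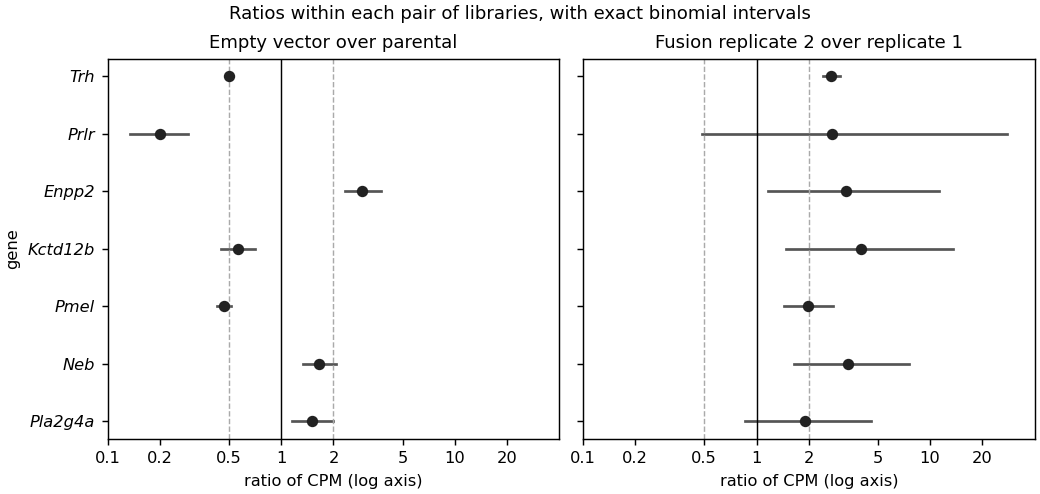
Ratio of CPM (log axis) between the control libraries (left) and between the fusion libraries (right) for each gene, with 95% exact binomial intervals for counting error as bars; the solid line marks 1 and the dashed lines a 2-fold difference. On the left the genes fall on both sides of 1, from 0.201 for Prlr to 2.94 for Enpp2; on the right every point lies above 1, and the intervals of Prlr and Pla2g4a include it.

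The 250 bases upstream of annotated starts are shown for the members that the RefSeq promoter table holds, Trh, Prlr and Pla2g4a (3 of 7, build GRCm38.p6), so that the sequence beside which these changes occur can be read. They were searched on both strands for TGATTTAT (a PBX-HOX composite), TGACAG (MEIS), TTCNNNGAA (STAT), TGACGTCA (the cyclic AMP element), TAATCC (OTX), ATGCAAAT (octamer) and CATGTG (the core bound by MITF). Capitals mark matches. Each line reads 5′ to 3′ towards the start of transcription.
Trh, chr6:92244651-92244900, minus strand: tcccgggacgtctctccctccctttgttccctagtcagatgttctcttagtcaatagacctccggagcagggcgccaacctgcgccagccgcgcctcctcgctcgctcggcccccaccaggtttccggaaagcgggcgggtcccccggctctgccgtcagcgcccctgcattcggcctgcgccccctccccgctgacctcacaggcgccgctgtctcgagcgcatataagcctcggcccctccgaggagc
Prlr, first of 3 starts, chr15:10176988-10177237, plus strand: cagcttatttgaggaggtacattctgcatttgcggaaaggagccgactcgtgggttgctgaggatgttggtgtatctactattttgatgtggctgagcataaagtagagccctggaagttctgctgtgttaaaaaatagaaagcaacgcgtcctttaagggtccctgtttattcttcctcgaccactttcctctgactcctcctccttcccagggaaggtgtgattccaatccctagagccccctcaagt
Prlr, second start, chr15:10223656-10223905, plus strand: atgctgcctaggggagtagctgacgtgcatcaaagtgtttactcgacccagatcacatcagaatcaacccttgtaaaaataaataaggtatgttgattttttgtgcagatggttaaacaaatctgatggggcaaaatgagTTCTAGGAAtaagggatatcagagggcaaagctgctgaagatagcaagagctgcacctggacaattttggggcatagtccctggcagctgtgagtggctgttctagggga
Pla2g4a, first of 2 starts, chr1:149961291-149961540, minus strand: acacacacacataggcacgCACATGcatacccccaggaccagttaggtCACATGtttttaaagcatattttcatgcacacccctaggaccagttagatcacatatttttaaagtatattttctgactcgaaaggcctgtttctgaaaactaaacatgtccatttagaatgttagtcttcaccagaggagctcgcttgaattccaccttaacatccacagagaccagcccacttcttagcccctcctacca

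The Trh window was 68.8% G and C with 25 CpG pairs, against a median of 52.4% and 6 over 32544 promoter windows of the same length. The first Prlr window (48% and 6 CpG pairs) and the Pla2g4a window (43.2% and 3) were below that median GC. None of the 7 motifs matched in the Trh window or in the first Prlr window. The second Prlr start had 1 STAT match, TTCTAGGAA, 110 bases before the start, a motif that 7.04% of all windows hold. The Pla2g4a window had 2 matches to CATGTG, both as CACATG on the opposite strand, 231 and 202 bases before the start, and 12.3% of windows hold at least 1. The PBX-HOX composite, in 0.836% of windows, was in none of the 6 member windows. A match is a run of letters and not a measured site.

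RSEM's average transcript length, weighted by the estimated abundance of each isoform, gave a readout that the choice of members did not use. The GENCODE annotation gives Neb a longest transcript of 22489 bases and a shortest of 582. The average for Neb was 4719 and 4961 bases in the wild-type and 3318 and 3655 bases in the fusion libraries, so in all 4 the estimate leaned on transcripts far shorter than the full-length muscle message. Pla2g4a averaged 1735 bases in the parental library and 2836 with the empty vector, from 94 and 139 expected counts, and 2523 and 2835 in the fusion replicates, from 10 and 21. Pmel averaged 2108 and 2069 bases in wild-type cells, near its longest transcript of 2130, and 1674 and 1925 in fusion cells. For Prlr, 5760 and 5987 bases in wild-type cells compare with 9900 and 8034 in fusion cells, but the latter rest on 2 and 6 expected counts. Trh has 1 annotated transcript, of 1384 bases. These lengths carry no error estimate, and isoform shares were not tested.

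Other genes of the members' pathways came from 7 lists with 186 genes, of which 132 could be tested: 2 (1.52%) fell, 5 (3.79%) rose, and the median log2 fold change was 0.14. Over all genes tested, 0.581% fell, 2.83% rose, and the median was 0. The share of pathway genes that fell or rose rests on 7 calls.

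Of the genes that cut and break down TRH or act in the thyroid axis, 0 of 14 tested passed in either direction (median log2 fold change 0.63). In 8 of the 14 both fusion libraries lay above both wild-type libraries, and in 1 below, against 4468 and 4002 of 16511 genes tested. Among the 8 were Cpe (4.53 and 4.56 against 14.5 and 9.94 CPM, edgeR adjusted p = 0.0723), Pam (log2 fold change 1.14) and Qpct (1.12). Pgpep1, a peptidase that removes pyroglutamate from peptides such as TRH, stood at 28.6 and 25.4 CPM in wild-type and 34.1 and 37.5 CPM in fusion libraries (adjusted p = 0.347, edgeR). Prep, a prolyl peptidase, stood at 121 and 93.1 against 115 and 112 CPM (adjusted p = 0.87). Pcsk1, a convertase that cuts prohormones, was at 3.75 and 3.13 against 3.51 and 2.6 CPM. The receptor Trhr, the TRH-degrading enzyme gene Trhde and Tshb had 0 counts in every library.

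In the prolactin receptor list, 1 of 15 tested genes fell and 0 rose (median 0.29). Socs2, a feedback inhibitor of growth hormone and prolactin signalling, fell from 108 and 115 CPM in parental and empty-vector cells to 19.9 and 44.9 CPM in the fusion replicates, a log2 fold change of -1.78 with an SE of 0.36 (edgeR adjusted p = 0.0494). Socs2 was at the edge of the threshold: its adjusted p was 0.158 without the empty-vector library, 0.164 without the parental one and 0.0781 without fusion replicate 1, over a range of 6.19e-05 to 0.164 in all alternatives. Shc1 and Grb2, adaptor genes with the highest TPM of the list, had adjusted p of 0.129 and 0.506. Jak2, the receptor's kinase, stood at 9.32 and 4.67 CPM against 13.9 and 11.7 CPM, and Stat5b at 14.4 and 6.36 against 11.7 and 16.3 CPM, neither past the test. The ligands Prl, Prl3d1 and Prl3b1 and the milk protein genes Csn2 and Wap had 0 counts in every library.

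In the lysophosphatidic acid list, 1 of 20 tested genes rose and 0 fell (median 0.11). Lpar1, a receptor for the lipid that ENPP2 makes, rose from 11.4 and 10.2 CPM in parental and empty-vector cells to 81.7 and 41.2 CPM in the fusion replicates, a log2 fold change of 2.51 with an SE of 0.35 (edgeR adjusted p = 0.0204). Its adjusted p was 0.0528 without fusion replicate 1, 0.0657 without the empty-vector library and 0.0546 without the parental library, in a range from 3.26e-09 to 0.0657. Lpar1 stood at its highest in fusion replicate 1, where Enpp2 was at its lowest. The paralog Enpp3, a nucleotide pyrophosphatase, stood at 64.4 and 57.5 CPM in wild-type and 3.96 and 17.9 CPM in fusion libraries, with no overlap, but did not pass (log2 -2.47, adjusted p = 0.0762). Enpp1 stood at 1.35 and 0.849 against 3.16 and 2.14 CPM (adjusted p = 0.223), and Lpcat3 and Lpcat1, which reacylate lysophospholipids, had adjusted p of 0.795 and 0.29.

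In the phospholipase and eicosanoid list, 2 of 26 tested genes rose and 0 fell (median 0.17). Ptges, the inducible prostaglandin E synthase, rose from 2.81 and 1.8 CPM in parental and empty-vector cells to 82.7 and 39.8 CPM in the fusion replicates, a log2 fold change of 4.72 with an SE of 0.45 (edgeR adjusted p = 0.00847). Anxa1, an annexin known as an inhibitor of phospholipase A2, rose from 6.3 and 6.47 CPM in parental and empty-vector cells to 40.7 and 33.8 CPM in the fusion replicates, a log2 fold change of 2.54 with an SE of 0.25 (edgeR adjusted p = 0.00851). Both Ptges and Anxa1 kept their call in all 11 alternatives. Ptgs1, a cyclooxygenase that acts between PLA2G4A and PTGES, stood at 3.13 and 1.86 CPM in wild-type and at 19.6 and 7.16 CPM in fusion libraries without passing (adjusted p = 0.0661). Of the other Pla2g4 genes, Pla2g4b, Pla2g4c, Pla2g4e and Pla2g4f had log2 fold changes of 1.08, 0.72, -0.9 and 0.78 and none passed, and Pla2g4d was too low to test. Ptges3 and Lta4h, with the highest TPM of the list, had adjusted p of 0.218 and 0.159.

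In the melanosome list, 1 of 23 tested genes rose and 0 fell (median 0.08). Kit, the receptor of stem cell factor, which melanoblasts and germ cells use, rose from 45.9 and 53.6 CPM in parental and empty-vector cells to 198 and 158 CPM in the fusion replicates, a log2 fold change of 1.84 with an SE of 0.2 (edgeR adjusted p = 0.0102), and kept its call in all 11 alternatives. Mitf, the regulator of pigment cells, stood at 6.3 and 8.7 CPM against 4.81 and 6.47 CPM (adjusted p = 0.611). Mlana stood at 0.0521 CPM in the parental library and 2.71 CPM with the empty vector, and at 0.451 and 0.775 CPM in the fusion replicates. Tyrp1, Dct, Oca2 and Slc45a2, the pigment enzyme and transporter genes, were too low to test. Cd63 and Bloc1s1, with the highest TPM of the list, had adjusted p of 0.281 and 0.811.

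In the sarcomere list, 1 of 26 tested genes rose and 0 fell (median 0.02). Myl4, an atrial and embryonic myosin light chain, rose from 1.67 and 1.17 CPM in parental and empty-vector cells to 8.77 and 6.06 CPM in the fusion replicates, a log2 fold change of 2.38 with an SE of 0.44 (edgeR adjusted p = 0.0393), but had adjusted p of 0.167 without fusion replicate 1, 0.0538 without replicate 2 and 0.0857 without the empty-vector library, in a range from 0.00018 to 0.167. Ttn, the other giant sarcomere gene, stood at 19.7 and 33.3 CPM against 10.1 and 13.3 CPM and did not pass (log2 -1.18, adjusted p = 0.105). The nebulin relatives Nebl (1.56 and 1.54 against 1.4 and 1.09 CPM) and Lasp1 (275 and 302 against 461 and 316 CPM) did not pass either. Tpm3 and Capzb, actin-filament genes with the highest TPM of the list, had adjusted p of 0.932 and 0.672.

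In the KCTD12 and GABA-B list, 1 of 8 tested genes fell and 0 rose (median 0.11). Kcnj3, a channel subunit that GABA-B receptors open through G proteins, fell from 19.1 and 19.2 CPM in parental and empty-vector cells to 1.45 and 4.42 CPM in the fusion replicates, a log2 fold change of -2.69 with an SE of 0.51 (edgeR adjusted p = 0.0413). Its adjusted p was 0.0795 without fusion replicate 1, 0.0768 without the parental library and 0.0729 without the empty-vector library, in a range from 1.1e-06 to 0.0795. Kctd12 itself stood at 8.02 and 6.84 against 10.1 and 7.11 CPM (adjusted p = 0.795). Gabbr1, a subunit of the receptor, stood at 69 and 74.9 against 99.7 and 143 CPM (adjusted p = 0.117), Gabbr2 was too low to test, and Gnb1 and Gnb2, with the highest TPM, had adjusted p of 0.687 and 0.257.

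**Figure D3:**
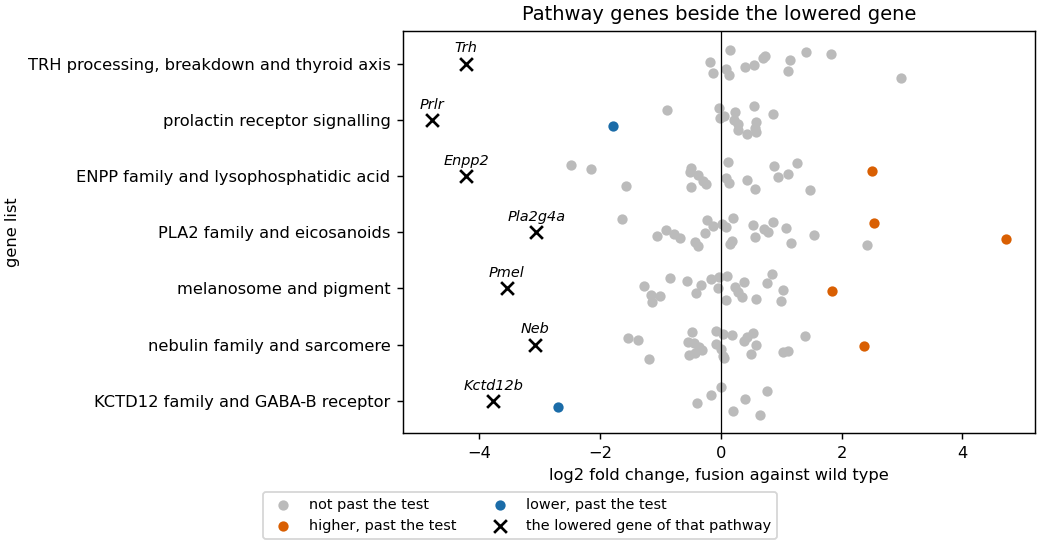
Log2 fold change, fusion against wild type, of each tested gene in the 7 pathway lists (dots; orange rose and blue fell past the test, grey did not pass) with the lowered gene of that pathway as a cross. The crosses lie between -4.78 and -3.05, left of every dot in their row, and most dots lie within 2 of 0. The crosses were chosen for a low value in this contrast, so their place beside the dots is not a result.

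The members lie on 6 chromosomes, with Prlr and Enpp2 both on chromosome 15. The tested genes nearest to them were taken, up to 3 on each side within 1 Mb, leaving out those that overlap a member. Of these 38 genes, 1 fell and 0 rose, and the median log2 fold change was -0.21. All genes tested had 0.581% called lower, 2.83% called higher and a median of 0. Neighbours with groups that do not overlap were more often lower than higher in fusion cells. Over all 16511 genes, 4002 were lower and 4468 higher in that way. The gene that fell was Rragb, a GTPase subunit of amino acid sensing, 513211 bases from Kctd12b on chromosome X, from 72.1 and 72.8 CPM in parental and empty-vector cells to 9.47 and 19.5 CPM in the fusion replicates, a log2 fold change of -2.32 with an SE of 0.34 (edgeR adjusted p = 0.023). It kept its call in all 11 alternatives, while the genes between Rragb and Kctd12b, Ubqln2 and Klf8, had log2 fold changes of 0.53 and 0.34 and did not pass. Around Trh, Rbsn and Prickle2 had log2 fold changes of -0.05 and 0.21. Around Prlr, Capsl and Dnajc21 had -1.28 and -0.64, around Enpp2, Ccn3 and Taf2 had -0.25 and -0.14, and the nearest on the other side of Kctd12b, Nbdy, had 0.11. Next to Pmel, Rab5b and Pym1 had -0.16 and -0.26, and next to Neb, Rif1 and Arl5a had -0.57 and -0.32. Cdk2 and Dgka, which overlap Pmel and are not among the 38, had -0.45 and -1.18. Both were lower without overlap between the groups but did not pass (edgeR adjusted p = 0.233 and 0.0814). Dgka stood at 57.3 and 104 CPM in wild-type and 37.1 and 34.2 CPM in fusion libraries. On the sides of Pla2g4a, the predicted gene Gm15443 had -0.83 and Ptgs2, which encodes the inducible cyclooxygenase, had -0.38 at 0.866 to 1.46 CPM. None of these nearest neighbours passed the test.

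Chromosomes were compared between the fusion libraries by the median log2 difference, replicate 2 less replicate 1, of genes at a mean of 1 CPM or more. Those without a member were not compared. The median was 0.01 to 0.05 on chromosomes 1, 2, 6, 10 and X, and 0.01 over all genes together. Chromosome 15 stood apart from these, with a median of -0.32 over its 579 genes. Enpp2 went the other way, with a 3.27-fold higher level in replicate 2, while for Prlr the interval of the ratio included 1. Between fusion and wild type the chromosome's median was 0.16. The medians of chromosomes 1, 2, 6, 10 and X in that contrast lay between -0.12 and 0.03.

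**Figure D4:**
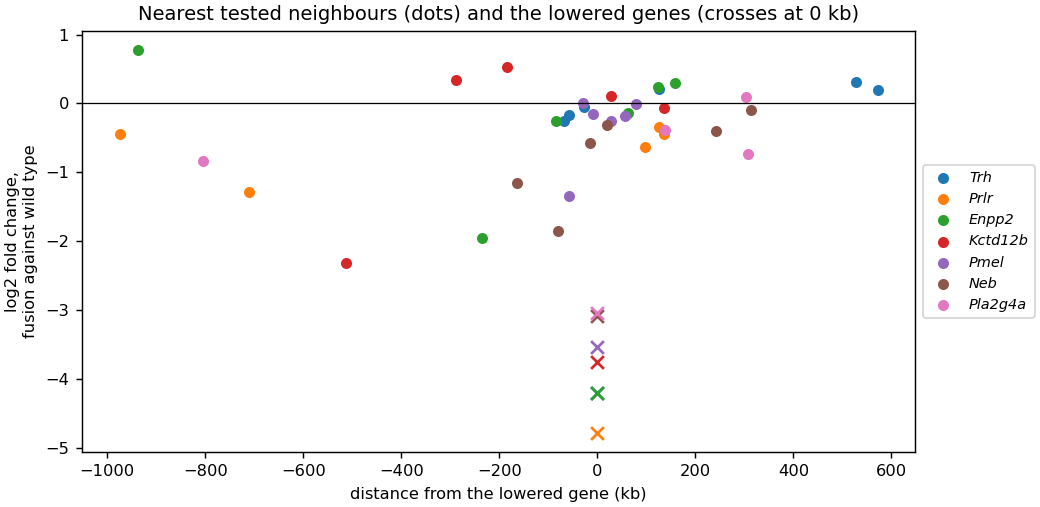
Log2 fold change, fusion against wild type, of the nearest tested genes (dots, coloured by the lowered gene they flank) against their distance in kb from it, with the lowered genes as crosses at 0 kb. Genes that overlap a lowered gene are left out. The crosses reach -3.05 or lower, which follows from how the genes were chosen. Of the 38 neighbours, 37 did not pass the test, and Rragb, at -2.32, is the exception.

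Genes whose levels over the 4 libraries were most like each member's were found by the smallest Euclidean distance between centred log2 CPM values, among 12031 genes. Fgf5, a growth factor of the primed epiblast, was among the nearest to Trh, Prlr and Pmel (distances 1.21, 1.1 and 0.51), with 12 and 4.72 CPM in the wild-type and 0.451 and 1.32 CPM in the fusion libraries. Otx2, a homeobox gene of primed epiblast and forebrain, was among the nearest to Enpp2 (1.03) and Neb (0.37), at 61.3 and 78 against 3.66 and 11.4 CPM. Prdm1 was nearest to Kctd12b (0.66), Slc27a2, a fatty acid transporter, to Neb (0.36), and Cbr3, a carbonyl reductase, to Pla2g4a (0.34). The others named by this measure were Gbp2b for Prlr (0.95), Myb for Pmel (0.65), Bnipl for Enpp2 (1.27) and Dpys for Pla2g4a (0.57). With 4 libraries, likeness mainly reflects the drop itself and whether the parental or the empty-vector library was higher. By that order in CPM the members split into Trh, Prlr, Kctd12b and Pmel, highest in parental cells, and Enpp2, Neb and Pla2g4a, highest with the empty vector. For Pla2g4a the order did not hold on the deposited TPM (3.95 in parental cells, 3.86 with the empty vector). Within the first set distances ran from 0.57 (Trh and Kctd12b) to 1.16 (Prlr and Kctd12b), and within the second from 0.58 (Neb and Pla2g4a) to 1.31 (Enpp2 and Pla2g4a). Between the sets they ran from 1.25 (Kctd12b and Neb) to 2.7 (Prlr and Enpp2), so the ranges overlap. The sets were made from the same values as the distances.

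Markers of other states moved in the same comparison. Of 6 primed epiblast markers, Otx2, Pou3f1 and Dnmt3b fell and 0 rose. Fgf5, Lef1 and Sox3 did not pass, with log2 fold changes of -3.22, -1.62 and 0.43. The summed level of the 6 was 204 and 293 TPM in wild-type and 79.1 and 117 TPM in fusion libraries. Dnmt3b alone made up 137.73 and 192.53 TPM of the wild-type and 66.37 and 90.65 TPM of the fusion sums. Without the empty-vector library the adjusted p was 0.14 for Otx2, 0.0688 for Pou3f1 and 0.0571 for Dnmt3b, without the parental library 0.161 for Otx2, without fusion replicate 1 it was 0.148 for Pou3f1 and 0.176 for Dnmt3b, and without replicate 2 it was 0.0654 and 0.0503. Like the 7 members, this sum was higher in fusion replicate 2 than in replicate 1. Of 10 primitive and visceral endoderm markers, 8 were tested and all 8 rose, with 23.2 and 19.1 TPM in wild-type and 202 and 213 TPM in fusion libraries. Without fusion replicate 1 the adjusted p was 0.144 for Foxa2 and 0.0537 for Sox17, and without the empty-vector library it was 0.0613 for Foxa2. Of 7 fibroblast markers tested, Pdgfrb rose, and the list summed to 33.2 and 22.9 TPM in wild-type and 41.9 and 57.3 TPM in fusion libraries. Of 4 neural markers tested Sox1 rose at the edge of the threshold (edgeR adjusted p = 0.0468), and it kept its call in 6 of 10 alternatives. Pax6 (8.49 and 5.14 against 0.551 and 2.64 CPM) and Nes (52.8 and 22 against 13.9 and 15.8 CPM) were lower without overlap but did not pass. The neural sums, 88.3 and 99.6 against 87.5 and 98.9 TPM, were mostly Tubb3 (69.02 and 89.54 against 81.01 and 91.23 TPM). Of 6 trophectoderm and 4 muscle markers tested 0 passed, with sums of 120 and 32.6 against 212 and 95.2 TPM, and of 8.82 and 10.7 against 25.6 and 16.9 TPM. Of 4 melanocyte markers tested Kit rose, and the list summed to 17 and 27.2 against 65.5 and 57.2 TPM. Kit alone made up 13.27 and 17.08 against 61.33 and 51.27 TPM of these sums. Mitf, Mlana and Sox10 had log2 fold changes of -0.41, -1.15 and 0.99 and did not pass. The pituitary list summed to at most 0.27 TPM. The part of these states in the levels of the 7 genes was not tested.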

How the data were processed

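Poly(A) RNA was sequenced from 4 libraries after a stranded preparation, per the labels. Each library has 1 gene table from the authors with expected counts, TPM, FPKM and average transcript lengths, per the file headers. The submitters' processing notes list RSEM 1.3.3, STAR 2.7.10a, DESeq2 1.36.0 and build GRCm38, but no source used here gives the gene annotation, the strand option or any filter. Deposited FPKM went unused, and the deposited TPM values served for levels between genes. Of the gene identifiers, 99.53% were found in GENCODE vM21 (GRCm38), and 99.82% of single-transcript genes had the same length there.

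The deposited expected counts, RSEM estimates, were rounded to whole numbers, then fitted in edgeR 4.0.16 (R 4.3.3) with TMM scaling, filterByExpr at a minimum count of 10, a robust quasi-likelihood fit over 16511 genes, and Benjamini-Hochberg adjustment (calls at 0.05). The common coefficient of variation within groups, edgeR's estimate beyond counting error, was 25.6%; its source, biological or technical, cannot be told apart. The SE of a log2 fold change is its size over the square root of F. Ratios between single libraries used rounded counts and TMM-scaled totals, with exact binomial intervals; genes at least 2-fold apart were counted on log2 CPM with a prior count of 2. The members, lists and tests were chosen with earlier results of these data known. Named genes were the members, list members past the test, the 2 of highest TPM per list, paralogs, nearest neighbours and the 2 genes of most alike levels per member; a gene that the last rule names is not reported here. Pcsk1, Cpe, Pam, Qpct, Jak2, Stat5b, Ptgs1, Lasp1, Gabbr1, Klf8, Cdk2 and Dgka were named after their values were seen. The fit was checked on simulated data. Alternatives were DESeq2 size factors, library totals, other filters, a fit that is not robust, a DESeq2 1.42.0 Wald test, limma 3.58.1 on log2 of TPM plus 1, and each library left out.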

Additional observations from a re-analysis of the deposited data

How the results depend on the processing

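All 76 log2 fold changes of the 7 genes under the alternatives lay below 0, and 66 moved by less than the spread between replicates; Prlr was too low for the TPM filter. The counts were less stable. With DESeq2's Wald test, 436 genes were lower and 919 higher, with 9 and 10 pathway genes. With no count filter they were 631 and 1315, with 8 and 16 pathway genes and 4 neighbours lower. By limma on TPM they were 31 and 237, with 1 pathway gene lower, and with library totals 0 pathway genes were lower. Leaving out each library in turn gave 11 to 185 genes lower and 152 to 367 higher, 0 to 5 pathway genes lower and 3 to 7 higher; the lowest counts of genes came without fusion replicate 1. With 1 neighbour a side, 0 were lower, since Rragb lies farther out. On deposited TPM, 1 of the 7 genes was at least 2-fold lower with the empty vector. The cause of these differences was not tested. In a group left with 1 library, that library is assumed to vary like the other group. No paired analysis was possible because the groups share fewer than 2 replicate numbers. Low counts, from 2 to 37 expected counts, limit Prlr, Enpp2, Kctd12b, Pla2g4a and Neb in the fusion libraries.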
